A study of Mus musculus with 8 samples.

Results

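The 45 genes described here encode the machinery that copies chromosomes and then pulls them apart, from the helicase loaders of replication to the kinases, cyclins and motors of mitosis. They were chosen as named genes with a known cell cycle role, and Nek2, the kinase that gave the set its name, had been called lower in C3-/- tumors by DESeq2 in an earlier analysis of the same counts, so its own difference was known when the set was drawn up. They are 45 of the 29968 genes in the deposited table, and all 45 were abundant enough to be tested among 16610 genes. RNA was sequenced in bulk from pancreatic tumors of 8 mice, 4 WT and 4 C3-/-. All were male mice 12 weeks old, WT mice being C57BL/6J and C3-/- mice being C57BL/6J that lack complement component C3, which is cleaved whenever complement is activated. Every mouse, of either genotype, received 250000 KPC cells in 50 µL of saline into the tail of the pancreas, and tumors were taken at the study endpoint, day 14 after surgery. KPC cells (line FC1245) came from a single tumor of a genetically engineered mouse in which Pdx-1-Cre is active in the pancreas. The injected cells keep their own C3 gene, so only the host lacked C3, and the comparison asked whether loss of C3 from the host altered RNA levels in the tumor. Tumors are named by genotype and replicate, WT 1 to WT 4 and C3-/- 1 to C3-/- 4.

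Dividing cells license each origin of replication once, by loading the MCM helicase with the help of Cdc6 and Cdt1, and fire those origins after cyclin E rises at the end of G1. Cyclin A and B with Cdk1 then drive entry into mitosis, Plk1, the Aurora kinases and Nek2 separate the centrosomes and build the spindle, and the anaphase-promoting complex with Cdc20 ends mitosis by marking cyclin B and securin for destruction. Transcription follows the same order, since replication genes are switched on by E2F factors at the G1 to S border and mitotic genes later, in G2, by complexes that bind the CHR element and NF-Y boxes together with Mybl2 and Foxm1. Amounts of these mRNAs in a tissue are widely used as measures of proliferation, Mki67 and Top2a being the best known. In bulk RNA, fewer dividing cells and less RNA per dividing cell cannot be told apart.

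The tumors gave 13266029 to 23354212 counts in WT and 15453897 to 22293561 in C3-/- tumors, and the median biological coefficient of variation was 0.245. C3 itself was at 210, 426, 226 and 324 CPM in WT 1 to WT 4 and at 109, 134, 100.3 and 100.7 CPM in C3-/- 1 to C3-/- 4, with no overlap (CPM, counts scaled to the same TMM-adjusted library total in each tumor). Its log2 fold change, C3-/- minus WT as throughout, was -1.42 (SE 0.23). Adjustment left a p of 0.933 in edgeR, and DESeq2 gave an adjusted p of 1.3e-05. The epithelial marker Krt8 was at 1802 to 3453 CPM and the collagen gene Col1a1 of fibroblasts at 1735 to 5147 CPM, so tumor epithelium and stroma were present in all 8 tumors. RNA of skeletal muscle was near 0 in WT 2, WT 3 and C3-/- 2 (summed level of 11 markers 15 to 29.98 CPM) and at 1410 to 3604 CPM in the other 5 tumors, and C3-/- 1 had 2223 CPM of acinar markers against 42.2 to 642 CPM elsewhere.

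The promoters of a few members are shown because the CHR is more frequent among the later, mitotic members and the E2F motif among the earlier, replication members. Not every promoter shown follows this. Each runs from 150 bases before to 30 bases after the RefSeq transcription start (GRCm38.p6, a build other than that of the counts), read 5′ to 3′ on the strand of the gene. Capitals mark matches on either strand to CCAAT, the box bound by NF-Y, to TTTGAA or TTCGAA, forms of the CHR, and to TTTCGCGC, TTTGGCGC or TTTCCCGC, forms of the E2F motif. The first 5 belong to the genes with the lowest unadjusted p values among those lower in C3-/- tumors and found in the promoter table, and the last 3 to replication licensing genes.
Nek2, chr1:191821323-191821502, plus strand: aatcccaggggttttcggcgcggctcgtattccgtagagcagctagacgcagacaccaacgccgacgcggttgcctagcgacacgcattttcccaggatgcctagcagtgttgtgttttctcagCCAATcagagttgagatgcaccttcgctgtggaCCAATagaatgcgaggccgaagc
Plk1, chr7:122159285-122159464, plus strand: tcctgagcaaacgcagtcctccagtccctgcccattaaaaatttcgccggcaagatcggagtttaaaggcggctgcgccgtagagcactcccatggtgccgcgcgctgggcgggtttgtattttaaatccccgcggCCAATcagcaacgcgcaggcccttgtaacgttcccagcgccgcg
Ccnb1, chr13:100786457-100786636, minus strand: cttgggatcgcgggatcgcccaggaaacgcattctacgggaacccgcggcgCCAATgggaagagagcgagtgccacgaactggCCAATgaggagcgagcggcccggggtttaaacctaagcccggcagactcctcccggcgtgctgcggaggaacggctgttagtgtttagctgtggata
Ccnb2, chr9:70421525-70421704, minus strand: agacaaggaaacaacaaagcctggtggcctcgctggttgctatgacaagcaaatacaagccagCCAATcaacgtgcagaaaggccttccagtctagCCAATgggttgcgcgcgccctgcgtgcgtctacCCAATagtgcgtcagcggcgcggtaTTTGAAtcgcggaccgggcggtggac
Cenpf, chr1:189688057-189688236, minus strand: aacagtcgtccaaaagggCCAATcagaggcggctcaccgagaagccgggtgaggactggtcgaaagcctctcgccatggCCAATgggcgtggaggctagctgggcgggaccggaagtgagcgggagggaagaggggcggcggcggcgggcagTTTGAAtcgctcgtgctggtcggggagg
Cdc6, chr11:98908001-98908180, plus strand: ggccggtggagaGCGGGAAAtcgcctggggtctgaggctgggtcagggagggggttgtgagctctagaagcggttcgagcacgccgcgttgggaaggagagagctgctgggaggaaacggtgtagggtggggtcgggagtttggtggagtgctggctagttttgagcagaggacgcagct
Mcm5, chr8:75109359-75109538, plus strand: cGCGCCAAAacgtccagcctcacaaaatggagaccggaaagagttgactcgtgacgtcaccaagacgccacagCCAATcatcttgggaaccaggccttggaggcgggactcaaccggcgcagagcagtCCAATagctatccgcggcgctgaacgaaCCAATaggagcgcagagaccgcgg
Mcm6, chr1:128359676-128359855, minus strand: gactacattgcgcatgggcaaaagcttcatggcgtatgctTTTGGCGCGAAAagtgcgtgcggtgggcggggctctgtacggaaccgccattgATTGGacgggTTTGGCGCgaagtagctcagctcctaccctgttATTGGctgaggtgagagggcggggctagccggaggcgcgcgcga
Nek2 has CCAAT boxes 26 bases before and 8 bases after its start, and no CHR in the window. Ccnb1 has 2 CCAAT boxes and no CHR either. Ccnb2 and Cenpf have CCAAT boxes upstream and a CHR just past the start, at 5 and 3 bases. The CHR of Plk1 begins 31 bases after the start, just beyond the letters printed. Cdc6 holds 1 E2F motif and no CCAAT box, while Mcm5 and Mcm6 hold both E2F motifs and CCAAT boxes, and the first pair of E2F matches in Mcm6 share letters.

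Over the 300 bases that the table holds for each start (250 before and 50 after), 37 of the 45 members were found among 27025 genes. Aurkb, Ccna2, Ccne2, Foxm1, Gins2, Kif20a, Mcm4 and Tpx2 were not in the table. The 24 members in the mitotic role groups are the kinases, the APC/C and separase genes, the motor and spindle genes, the centromere genes, Mki67 and Top2a. The CHR was present in 16 of the 21 of them with a promoter (76.2%), against 21.7% of all genes, and in 2 of 11 members of the replication role groups (18.2%), which are licensing, helicase, nucleotide and clamp genes. E2F letters gave the reverse picture, with 6 of 11 replication members (54.5%) and 1 of 21 mitotic members (4.76%), against 2.12% of all genes. NF-Y boxes did not separate them, at 81.0% of mitotic and 72.7% of replication members, and 41.1% of all genes. In further genes of each kind, which are not members, the CHR was present in 65.2% of 66 mitotic and 22.7% of 44 replication genes, and E2F letters in 10.6% and 31.8%, a smaller gap than among the members. The median GC content of the windows was 60.3% for members and 52.7% for all promoters. Such matches describe letters in a window and not bound sites.

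**Figure D1:**
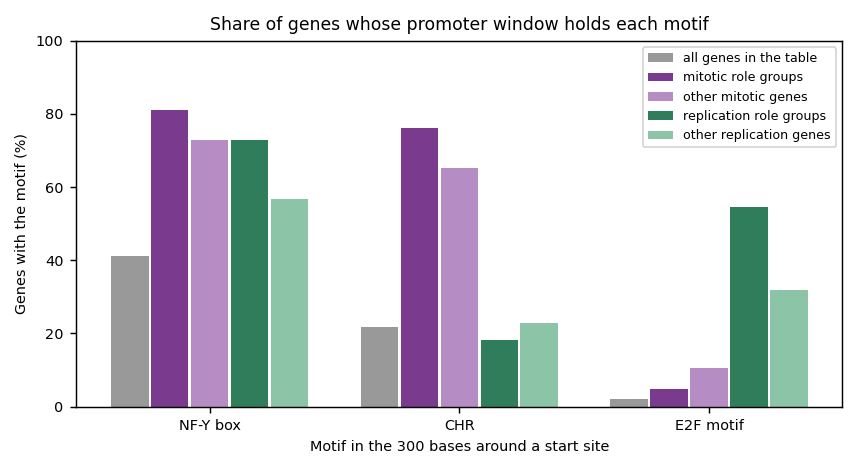
Bars give the share of genes (%, vertical axis) whose 300-base promoter window holds an NF-Y box, a CHR or an E2F motif, for all genes in the table and for mitotic and replication genes among the members and outside them. The CHR stands at 76.2% in mitotic and 18.2% in replication members, and E2F motifs at 4.76% and 54.5%.

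Mitotic members had lower fitted levels in C3-/- tumors with the exception of Pttg1. Of the 13 members that license and copy DNA, 4 did, a number that became 8 without WT 4 or C3-/- 1 and 2 without WT 3, without C3-/- 2 or with acinar markers as a covariate. No single member passed the adjusted threshold in edgeR. Of the 45 members, 0 had an adjusted p below 0.05 in edgeR's quasi-likelihood test (Benjamini-Hochberg over all genes), as did 0 of 16610 genes (0.0%), and the smallest adjusted p of a member was 0.933. At an unadjusted p below 0.05, 6 members were lower in C3-/- tumors (Nek2, Plk1, Cenpf, Ccnb1, Ccnb2 and Tpx2) against 2.07% of all genes tested, and 2 were higher (Cdc6 and Ccne2) against 3.03%. The fitted log2 fold change was below 0 for 32 of 45 members, against 50.0% of all genes, with a median of -0.19 against -0.00 over all genes. The 4 C3-/- tumors were all below the 4 WT tumors for 5 members (Nek2, Plk1, Ccnb1, Kif23 and Nusap1), where 1.45% of all genes did so, and all above them for Cdc6, where 2.28% did so. DESeq2 on the same counts called 1 member, Nek2, at an adjusted p below 0.05. Of the genes to which it gave an adjusted p, 0.0799% were called in either direction and 0.0449% as lower. It placed 9 members lower and 2 higher at an unadjusted p below 0.05. The shares were 2.49% and 3.22% of the 16578 genes tested in edgeR to which it gave a p. limma-voom called 0 members. The difference of Nek2 was known beforehand. Among the 44 other members, 5 were lower at an unadjusted p below 0.05 in edgeR, and the median log2 fold change was -0.18. Of these 44, 4 had all C3-/- tumors below WT, and DESeq2 called 0. The 6 members lower at an unadjusted p below 0.05 became 3 without C3-/- 2, 11 without C3-/- 1 and 12 without C3-/- 4, and on all tumors 10 with no filter beyond 1 count and 11 with acinar markers as a covariate. The 2 higher became 1 without any of WT 1, WT 2, WT 3, C3-/- 3 and C3-/- 4 and with muscle or acinar markers as a covariate, and the median of the members was -0.10 without C3-/- 2 and -0.29 without C3-/- 4. The 5 members with all C3-/- tumors below WT became 2 on total counts without TMM, 8 without C3-/- 1 and 12 without C3-/- 4, and the 1 above became 2 without WT 4 or C3-/- 1.

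**Figure D2:**
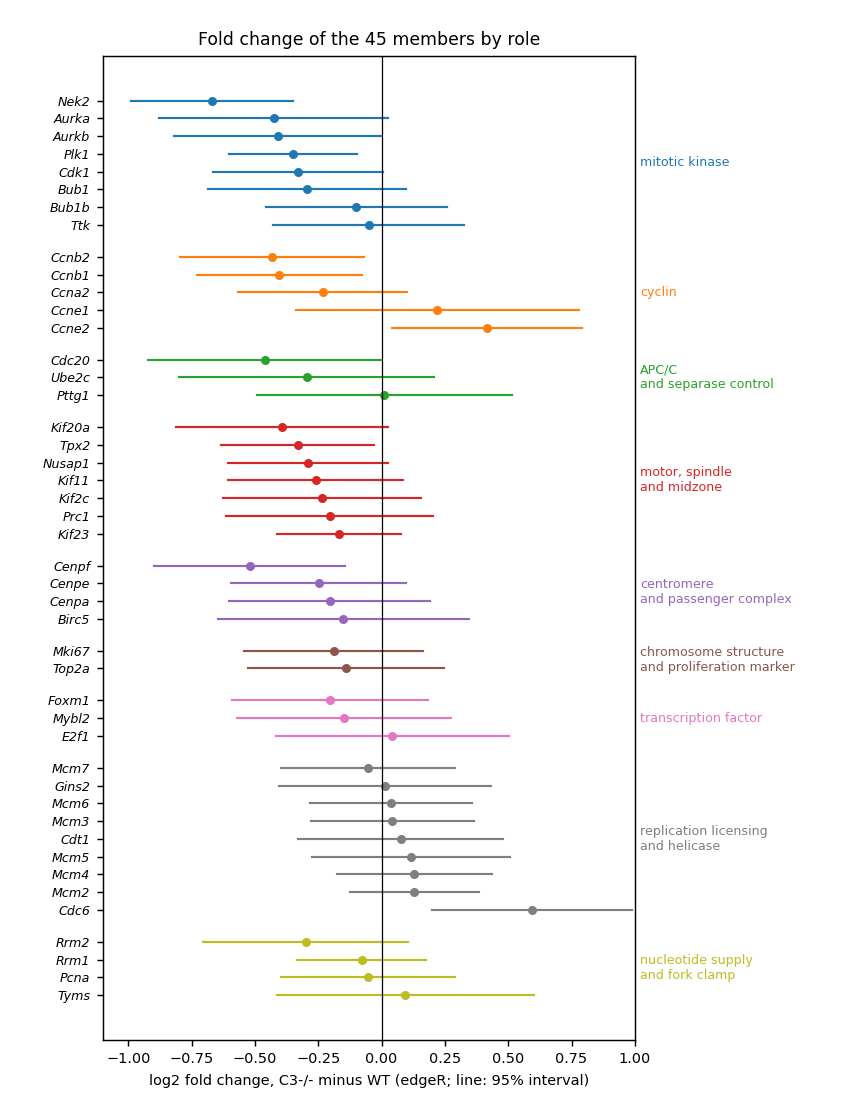
Points give the log2 fold change of each member (C3-/- minus WT, horizontal axis, edgeR) with its 95% interval as a line, in blocks and colors by role. All 8 mitotic kinases and all 7 motor and spindle genes lie left of 0, and 8 of the 9 licensing and helicase genes lie right of it.

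Nek2, a centrosomal kinase that loosens the linker between centrosomes at the onset of mitosis, lies on chromosome 1 from 191553556 to 191565162 on the plus strand of mm39. It was at 52.0, 44.1, 47.8 and 46.6 CPM in WT 1 to WT 4 and at 30.9, 23.7, 29.5 and 35.5 CPM in C3-/- 1 to C3-/- 4. The highest C3-/- tumor, C3-/- 4, thus stayed below the lowest WT tumor, WT 2. Mean levels were 47.6 ± 3.30 CPM in WT and 29.9 ± 4.86 CPM in C3-/- tumors (SD, n = 4 each), the latter 62.8% of the former. The log2 fold change was -0.67 (SE 0.14, 95% interval -0.99 to -0.35), and p in edgeR was 0.000848 unadjusted and 0.933 adjusted. DESeq2 gave -0.68 with an adjusted p of 0.0489. With 1 tumor left out at a time, the adjusted p of DESeq2 lay between 0.0199 (without C3-/- 1) and 0.831 (without C3-/- 3) and was below 0.05 only without C3-/- 1, while the log2 fold change in edgeR stayed between -0.76 and -0.57. The gene overlaps an antisense transcript, Gm38037, which had 1 to 18 counts per tumor against 424 to 1096 for Nek2.

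The other 7 mitotic kinases also had fold changes below 0 (50.0% of all genes), and 1 of them separated the genotypes in this direction (1.45% of all genes). Plk1, the polo kinase needed for mitotic entry and spindle assembly, was at 75.3, 68.2, 64.0 and 63.8 CPM in WT tumors and at 53.9, 49.1, 50.7 and 59.1 CPM in C3-/- tumors, again without overlap. It overlaps Gm44985 on the opposite strand, which had 72 to 191 counts against 804 to 1499 for Plk1. The mean of Plk1 in C3-/- tumors was 78.4% of WT, a log2 fold change of -0.35 (SE 0.11, unadjusted p 0.0115 and adjusted p 0.960 in edgeR). Cdk1, the kinase that cyclin B activates, was at 84.2, 101, 125 and 104 CPM in WT tumors and at 92.8, 67.5, 78.9 and 89.9 CPM in C3-/- tumors (log2 fold change -0.33, SE 0.15). Aurka, at the spindle poles, and Aurkb, of the chromosomal passenger complex, had log2 fold changes of -0.43 (SE 0.20) and -0.41 (SE 0.18), and overlapped between genotypes. Aurkb in WT tumors rested in part on WT 2, at 47.5 CPM against 33.3 to 34.4 CPM in the other 3. The checkpoint kinases that hold back anaphase had fitted values nearer 0, with Bub1 at -0.29 (SE 0.18), Bub1b at -0.10 (SE 0.16) and Ttk at -0.05 (SE 0.17). For Ttk the 95% interval was -0.43 to 0.33, which includes the value of Plk1. The median over the 8 kinases was -0.34.

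Of the 5 cyclins, 2 were lower and 1 higher in C3-/- tumors at an unadjusted p below 0.05 in edgeR (2.07% and 3.03% of all genes were), and none passed after adjustment (smallest adjusted p 0.964). Ccnb1, which drives entry into mitosis, was at 116, 125, 123 and 122 CPM in WT tumors, within 10 CPM of each other, and at 87.6, 70.2, 93.2 and 115.5 CPM in C3-/- tumors. C3-/- 4 came within 1 CPM of the lowest WT tumor and the other 3 lay well below (log2 fold change -0.40, SE 0.15, unadjusted p 0.0198 in edgeR). Ccnb2, its relative, was at 53.7, 60.5, 65.1 and 49.5 CPM in WT tumors and at 51.8, 31.8, 43.8 and 42.2 CPM in C3-/- tumors, and overlapped through C3-/- 1 (log2 fold change -0.43, SE 0.16, unadjusted p 0.0242 in edgeR). Ccna2, active in S phase and G2, had a log2 fold change of -0.23 (SE 0.15), which was -0.13 without C3-/- 2 and -0.37 without C3-/- 4. The E cyclins act before replication. Ccne2 was at 14.1, 11.8, 14.5 and 16.8 CPM in WT tumors and at 15.6, 18.0, 21.4 and 21.4 CPM in C3-/- tumors, where only C3-/- 1 lay within the WT range. The difference came to 0.42 on the log2 scale (SE 0.17, unadjusted p 0.0326 and adjusted p 0.970 in edgeR). Ccne2 overlaps Ints8 on the opposite strand, which had 574 to 1279 counts, and how the counting treated strand is not given in the sources used here. Ccne1 was the scarcest member, at 4.87 to 9.97 CPM, with a log2 fold change of 0.22 (SE 0.25, 95% interval -0.34 to 0.78).

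**Figure D3:**
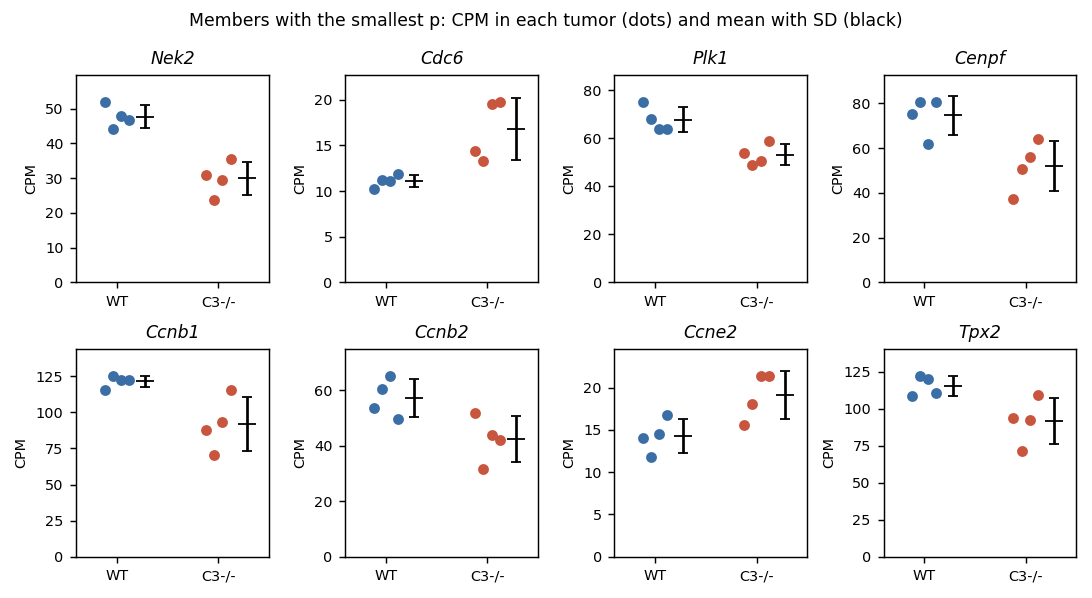
Dots give CPM (vertical axis, from 0) in each tumor for the 8 members with the smallest p, WT in blue and C3-/- in red, with the mean and SD of 4 tumors in black. Nek2, Plk1 and Ccnb1 have no overlap and lower C3-/- tumors, and Cdc6 has no overlap and higher C3-/- tumors.

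Of the genes that trigger the exit from mitosis, Cdc20, the activator of the anaphase-promoting complex, was at 93.1, 105, 115 and 79.3 CPM in WT tumors and at 98.3, 47.7, 67.8 and 71.4 CPM in C3-/- tumors. C3-/- 1 lay among the WT tumors (log2 fold change -0.46, SE 0.21, unadjusted p 0.0501 in edgeR). Ube2c, the ubiquitin-conjugating enzyme of the same complex, ranged widely in both genotypes, from 89.4 to 147 CPM in WT and from 58.8 to 125 CPM in C3-/- tumors (log2 fold change -0.30, SE 0.23). With 1 tumor left out, Ube2c ran from -0.48 (without C3-/- 1) to -0.13 (without C3-/- 2). Its span overlaps Tnnc2, a muscle troponin gene on the opposite strand, which was listed with 0 to 2 counts in every tumor, including those in which the muscle actin gene Acta1 had 10093 to 30612 counts. Whether reads of Tnnc2 were counted for Ube2c was not tested. Pttg1, the securin that holds separase in check, was the 1 mitotic member with a fold change above 0, at 0.01 (SE 0.23).

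Motor and spindle genes were lower on average in C3-/- tumors for all 7, with a median log2 fold change of -0.26. Tpx2, which activates Aurora A on spindle microtubules, was at 109, 122, 120 and 110 CPM in WT tumors and at 93.6, 71.5, 92.3 and 109 CPM in C3-/- tumors, so that C3-/- 4 met the lowest WT tumors (log2 fold change -0.33, SE 0.14, unadjusted p 0.0342 in edgeR). Kif23, a kinesin of the central spindle, was relative to its level the most even of the members in WT tumors, at 125, 126, 129 and 127.5 CPM. It lay below these values in every C3-/- tumor, at 95.3, 115, 118 and 123 CPM. That separation came with a small difference, -0.17 on the log2 scale (SE 0.11), which was -0.10 without C3-/- 1, the lowest tumor. Nusap1, which bundles microtubules, also separated the genotypes, at 57.3 to 73.8 CPM in WT and 41.2 to 57.1 CPM in C3-/- tumors, but by less than 1 CPM between the nearest tumors. Kif20a, the kinesin of late mitosis, had the largest difference of the group at -0.39 (SE 0.19). Kif11, the motor that pushes spindle poles apart, Kif2c, which takes microtubules apart at the centromere, and Prc1, the bundler of the midzone, had -0.26, -0.24 and -0.20 with SEs of 0.16 to 0.18. With 1 tumor left out, Kif11 ran from -0.36 to -0.17, Kif2c from -0.35 to -0.10 and Prc1 from -0.39 to -0.10.

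Cenpf, a large protein of the outer kinetochore, was at 75.4, 80.5, 62.0 and 80.8 CPM in WT tumors and at 37.4, 50.9, 56.0 and 63.9 CPM in C3-/- tumors. Only WT 3 and C3-/- 4 crossed. At -0.52 (SE 0.17, unadjusted p 0.0117 and adjusted p 0.960 in edgeR), its log2 fold change was next in size to Nek2 among the members below 0. Cenpe, a kinetochore motor, Cenpa, the histone variant that marks centromeres, and Birc5, of the passenger complex, had log2 fold changes of -0.25, -0.21 and -0.15, with SEs of 0.16 to 0.22. With 1 tumor left out, Cenpe ran from -0.40 (without C3-/- 4) to -0.16 (without C3-/- 2). Cenpa ran from -0.31 (without C3-/- 1) to -0.06 (without C3-/- 2).

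The usual proliferation markers overlapped between genotypes. Mki67 was at 176, 220, 164 and 192 CPM in WT tumors and at 140, 141, 169 and 209 CPM in C3-/- tumors, and Top2a, which untangles sister chromatids, at 195, 247, 195 and 210 CPM and at 160, 151, 207 and 250 CPM. In both genes C3-/- 1 and C3-/- 2 lay below all WT tumors and C3-/- 3 and C3-/- 4 within or above them. Log2 fold changes were -0.19 (95% interval -0.54 to 0.16) and -0.14 (-0.53 to 0.24), and unadjusted p values were 0.261 and 0.434 in edgeR. Both intervals include 0 and the mitotic median of -0.28. The value of Mki67 was -0.11 without WT 2, -0.12 without C3-/- 1 or C3-/- 2, -0.33 without C3-/- 4 and -0.32 with the acinar covariate. Of the transcription factors, Foxm1 and Mybl2, which act on mitotic genes, had log2 fold changes of -0.20 (SE 0.17) and -0.15 (SE 0.19), and E2f1, which acts on replication genes, 0.04 (SE 0.21). Foxm1 had -0.11 without C3-/- 1, -0.34 without C3-/- 4 and -0.36 with the acinar covariate.

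Of the 9 licensing and helicase genes, 8 had a fold change above 0, with a median of 0.08 (50.0% of all genes were below 0), and Cdc6 alone had an unadjusted p below 0.05 in edgeR. Cdc6, which loads the MCM helicase, lies on chromosome 11 from 98798627 to 98814766 on the plus strand of mm39. It was at 10.3, 11.2, 11.1 and 11.8 CPM in WT tumors and at 14.4, 13.3, 19.5 and 19.8 CPM in C3-/- tumors, with no overlap. C3-/- 3 and C3-/- 4 were the high ones, and the mean in C3-/- tumors was 151% of WT. Its log2 fold change was 0.59 (SE 0.18, 95% interval 0.20 to 0.99), and in edgeR its p was 0.00736 unadjusted and 0.936 adjusted, while DESeq2 adjusted it to 0.400. Cdt1, its partner in loading, had 0.08 (SE 0.18, 95% interval -0.33 to 0.48) and Gins2, a subunit of the active helicase, 0.01 (SE 0.19, -0.41 to 0.43), intervals that overlap that of Cdc6. The MCM subunits lay between -0.05 (Mcm7) and 0.13 (Mcm2), with SEs from 0.12 to 0.18. For Mcm2 the 95% interval was -0.13 to 0.39. As subunits of 1 ring they are compared on the deposited FPKM scale, which divides by gene length. The highest of the 6 was 1.84 to 2.63 times the lowest in each tumor, and Mcm2 was the lowest in all 8.

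Of the enzymes that supply nucleotides and the clamp, 3 of 4 were below 0. Rrm2, the ribonucleotide reductase subunit made in S phase, was at 121, 145, 120 and 125 CPM in WT tumors and at 99.9, 69.4, 113 and 133 CPM in C3-/- tumors, a log2 fold change of -0.30 (SE 0.18). C3-/- 2 was the low tumor there, and C3-/- 4 lay above 3 of the WT tumors. The log2 fold change of Rrm2 was -0.15 without C3-/- 2 and -0.44 without C3-/- 4. Rrm1, the other subunit, had -0.08 (SE 0.12) and the replication clamp Pcna -0.05 (SE 0.15). Tyms, which makes thymidylate, had 0.09 (SE 0.23), with WT 3 at 45.7 CPM against 25.9 to 26.8 CPM in the other WT tumors.

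Set side by side, the 24 mitotic members had a median log2 fold change of -0.28, with 23 below 0, and the 13 replication members a median of 0.04, with 4 below 0, against 50.0% below 0 and a median of -0.00 over all genes. Without C3-/- 2 the mitotic median was -0.18, and the replication median turned to -0.03 without WT 4 and -0.05 without C3-/- 1, and was 0.15 without C3-/- 2. A difference taken within a tumor does not depend on how the tumor was scaled. The mean log2 CPM of mitotic members minus that of replication members was -0.17, -0.04, -0.20 and -0.05 in WT 1 to WT 4 and -0.56, -0.43, -0.48 and -0.36 in C3-/- 1 to C3-/- 4. All C3-/- tumors were below all WT tumors, and the means were -0.11 ± 0.08 and -0.46 ± 0.08 (SD, n = 4 each). The role groups were set with earlier results known, and no test was made of this difference. In C3-/- 2 both kinds of gene were low, at 5.402 for mitotic and 5.83 for replication members, whereas in C3-/- 1, C3-/- 3 and C3-/- 4 replication members were at 6.23 to 6.30, above the WT range of 6.02 to 6.21, and mitotic members were at 5.75 to 5.94, with WT at 5.93 to 6.11.

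**Figure D4:**
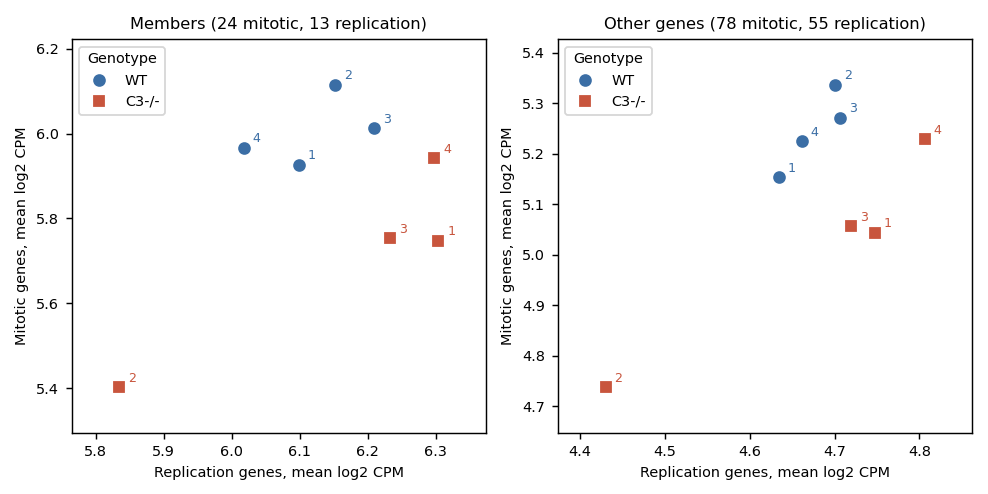
Each point is a tumor, numbered by replicate, with the mean log2 CPM of replication genes on the horizontal and of mitotic genes on the vertical axis (WT circles, C3-/- squares), for members at left and for genes that are not members at right. C3-/- 1, C3-/- 3 and C3-/- 4 lie to the right of all WT tumors, at 6.23 to 6.30 for members, and C3-/- 2 is low on both axes.

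Genes of the same pathways outside the set were counted in the same way. Of 78 other mitotic genes, all tested, 74 had a log2 fold change below 0, with a median of -0.23, and 9 had an unadjusted p below 0.05 in edgeR, all lower in C3-/- tumors (2.07% of all genes were). For 6 of them the highest C3-/- tumor was below the lowest WT tumor (1.45% of all genes). The count of 9 became 5 without WT 2, 16 without C3-/- 1, 4 without C3-/- 2, 5 without C3-/- 3, 18 without C3-/- 4 and 15 with the acinar covariate, and the median became -0.14 without C3-/- 2. None had an adjusted p below 0.05 in edgeR or DESeq2. The smallest p was that of Cdc25c, the phosphatase that switches on Cdk1, which was at 13.5, 15.9, 14.7 and 14.1 CPM in WT tumors and at 11.0, 8.401, 8.95 and 10.2 CPM in C3-/- tumors. Its groups did not overlap, and edgeR gave a log2 fold change of -0.59 (SE 0.16, p 0.00400 unadjusted and 0.933 adjusted). Ncaph, a condensin subunit, was at 71.7, 80.3, 73.8 and 66.4 CPM in WT and at 53.9, 52.5, 57.4 and 59.1 CPM in C3-/- tumors (log2 fold change -0.39, SE 0.11). Fam83d, which brings a kinase to the spindle, Sgo2a, a protector of centromeric cohesion, and Incenp and Racgap1, of the passenger complex and the central spindle, did not overlap between genotypes either, with log2 fold changes of -0.48, -0.47, -0.29 and -0.31. Tacc3, Troap and Kif4 had -0.42, -0.39 and -0.39 with overlap. The 4 above 0 were Knl1, Cdc25a, Zwilch and Kntc1, at 0.08 to 0.14.

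Of 55 other replication genes, 29 were below 0, the median was -0.00, and 0 had an unadjusted p below 0.05 in edgeR or in DESeq2. The 78 and 55 genes gave within-tumor gaps of 0.52 to 0.64 in WT and 0.30 to 0.42 in C3-/- tumors on the log2 scale, without overlap, so that the means differed by -0.23 where those of the members differed by -0.34. Regulators of G1, 33 genes, had a median of 0.01 and 0 with an unadjusted p below 0.05 in either tool. Ccnd1, the cyclin that starts the cycle, had 0.05 (SE 0.15), the inhibitor Cdkn1a -0.38 (SE 0.24) and the inhibitor Cdkn2a 0.12 (SE 0.23). Of 10 other kinases of the NEK family, 7 were tested, 5 of these were below 0, 0 had an unadjusted p below 0.05 in edgeR or DESeq2, and the fold changes ran from -0.22 (Nek7) to 0.22 (Nek4). Nek6 and Nek9, which act with Nek7 in spindle formation, had 0.06 (SE 0.10) and -0.09 (SE 0.15).

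Tumors of the same genotype also differed among themselves. C3-/- 2 was the lowest of all 8 tumors for 31 of the 45 members, where it was lowest for 15.6% of all genes tested, and C3-/- 4 was the highest of the C3-/- tumors for 26, where it was so for 21.8% of all genes. C3-/- 1 was the lowest of all for 7 members (15.6%), Cenpf among them, a share no larger than its 19.6% of all genes. The highest level of all 8 tumors was found in WT 2 for 15 members (33.3%, against 10.8% of all genes) and in WT 3 for 11 (24.4%, against 19.1%). Gene length sorted tumors as well. Over all genes tested, short genes minus long genes (at or below, or above, the median length) deviated by 0.30 in C3-/- 1 and 0.24 in WT 3 on the log2 scale, and by -0.16 to -0.02 in the other 6, and mitotic members had 0.30 and 0.10 in those tumors. The median log2 fold change of mitotic members was -0.30 for the 12 shorter and -0.23 for the 12 longer genes. Over all genes tested it was -0.02 for the shorter and 0.02 for the longer. The part of gene length in the lower mitotic levels was not tested.

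**Figure D5:**
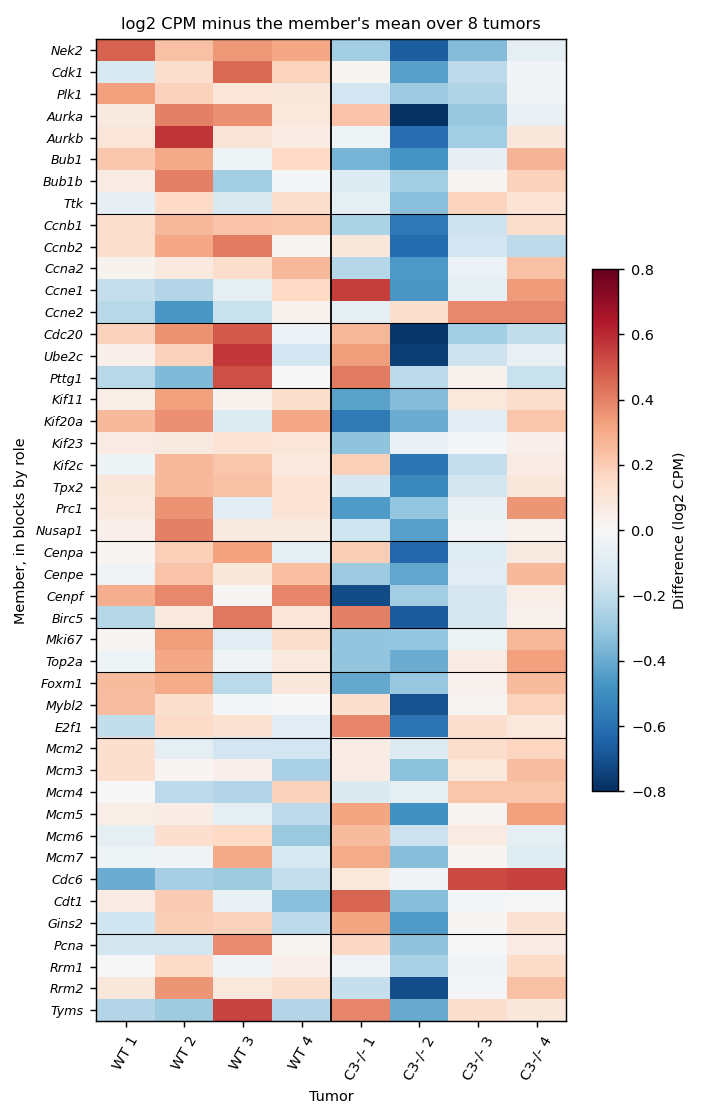
Colors give the log2 CPM of each member (rows, in blocks by role) in each tumor (columns) minus the mean of that member over 8 tumors, red above and blue below. C3-/- 2 is blue for nearly all members, and the blocks of licensing genes are red in most of the other C3-/- tumors.

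Markers of other cells moved with some of these tumors. The leukocyte list summed to 743 to 960 CPM in WT and 590 to 1279 CPM in C3-/- tumors, 9 of its 11 tested genes had a fold change above 0, and its most abundant gene was Lyz2. At an unadjusted p below 0.05 in edgeR, 3 of the 11 were higher and 1 lower, against 3.03% and 2.07% of all genes. Epithelial markers, led by Krt8, had 9 of 10 below 0, against 50.0% of all genes, with a median of -0.18 and sums of 6827 to 11310 CPM in WT and 6045 to 9955 CPM in C3-/- tumors. Fibroblast markers, led by Col1a1, had 8 of 10 below 0 and sums of 7677 to 11340 CPM in WT and 4619 to 11830 CPM in C3-/- tumors, the lowest in C3-/- 2. Endothelial markers were at 215 to 291 CPM and 190 to 327 CPM. Hepatocyte markers, led by Cyp2e1, were lower on average like the mitotic genes, with 6 of 7 tested below 0, a median of -2.83, 3 of 7 lower at an unadjusted p below 0.05 in edgeR, and sums of 29.98 to 204 CPM in WT and 15.5 to 48.0 CPM in C3-/- tumors. Acinar markers had 13 of 15 above 0 with a median of 0.80, and muscle markers 8 of 10 tested with a median of 0.29, although their mean log2 CPM differed by -2.41 and 1.66 between genotypes, so that the acinar median and mean differ in sign. None of these lists had a marker at 0 in every tumor, and Ncr1 of the leukocyte list and Tnnc2 of the muscle list had at most 3 counts in each. With the mean log2 level of muscle or acinar markers as a covariate, the mitotic median was -0.30 and -0.32. The part of leukocytes, fibroblasts, hepatocytes and epithelial cells in the lower mitotic levels was not tested.

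Per length, on the deposited FPKM scale, the members spanned a wide range of levels. By mean, Cdc20 was highest in both genotypes, at 52.1 ± 8.21 FPKM in WT and 37.7 ± 11.0 FPKM in C3-/- tumors (SD, n = 4 each). Rrm2, Ube2c and Pcna took the next 3 places in each, at 38.9 to 45.8 and 34.9 to 37.3 FPKM. In C3-/- tumors these 4 genes did not differ beyond their spread, and Cdc20 was above Pcna only in C3-/- 1 (52.0 against 42.2 FPKM). In WT 4, Rrm2 was above Cdc20, at 44.6 against 41.95 FPKM. Nek2 was number 30 of 45 in WT tumors, at 10.5 FPKM between Rrm1 at 11.1 and Kif11 at 10.2, and number 35 in C3-/- tumors, at 6.55 FPKM between Mybl2 at 6.599 and Kif2c at 6.27 (means of 4 tumors), with SDs of 0.617 to 1.63 over these genes, so that neighbors did not differ beyond their spread. Ttk, Ccne1 and Cdc6 took the last 3 places in both, with Cdc6 at 2.105 ± 0.113 FPKM the lowest in WT tumors and Ttk at 2.62 ± 0.410 FPKM the lowest in C3-/- tumors, where Cdc6 was at 3.17 ± 0.645 FPKM and the 3 did not differ beyond their spread. Counts per member ranged from 76 (Ccne1) to 4939 (Top2a) in a tumor, and 17 of the 45 overlap another gene, 15 of them on the opposite strand. For Ccna2, Ccne2, Cdc20, Kif20a, Prc1, Nusap1, Mcm7 and Gins2 the opposite gene is protein-coding with 62 or more counts in every tumor, and for these and Plk1 the values are uncertain if reads were counted without strand.

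The promoter letters can be set beside the differences in level. Of 19 members with a CHR, 18 had a log2 fold change below 0 with a median of -0.24. Of 7 members with an E2F motif, 2 did, with a median of 0.04. Of the 19, 16 are mitotic members, and of the 7, 6 are replication members, so motif and role cannot be told apart here. Mitotic members were below 0 for 23 of 24, and Nek2 has no CHR. Of 27 members with an NF-Y box, 23 were below 0 with a median of -0.21. Among 1865 tested genes outside the cell cycle lists with a CHR, 50.2% were below 0, and among 729 with both an NF-Y box and a CHR, 51.7%, against 50.1% of all tested genes with a promoter.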

How the data were processed

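RNA of KPC tumors from 4 WT and 4 C3-/- mice was sequenced after poly-A selection, as read pairs. The authors deposited raw counts per gene, the same counts divided by size factors (a normalized signal), and FPKM values, which are those normalized counts divided by gene length and a shared constant. Genome build mm39 was used. The study's methods name STAR and HTSeq, whereas the submitters' processing notes name HISAT2 2.0.5, and both name DESeq2 1.20.0. The strand setting is not given in the sources used here. Tests used the deposited counts alone, and deposited FPKM values served to compare levels between genes. The authors' normalized signal, genotype means and comparison columns (log2 fold change, p-value, adjusted p-value) were not used.

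Counts were fitted in edgeR 4.0.16 under R 4.3.3 (filterByExpr with a minimum count of 10, TMM, glmQLFit, glmQLFTest, Benjamini-Hochberg over 16610 genes). Intervals are 95%. Mean log2 CPM used a prior count of 2. Alternatives were DESeq2 1.42.0, limma-voom (limma 3.58.1), other scalings and filters, robust fitting, a replicate block, protein-coding genes only, muscle or acinar levels as covariates, and each tumor left out. No tumor was a repeat of another (chi-square per gene at least 15.3 within genotypes). On simulated counts with 200 of 16610 genes changed between C3-/- and WT, edgeR recovered 34% of genes at a log2 change of 1 and 88% at a log2 change of 2, and DESeq2 65.5% and 93%. Fitted log2 fold changes of the members were smaller, from -0.67 to 0.59 in edgeR, and recovery at such sizes was not simulated. Total counts were 13266029 to 23354212 per tumor, and the median SE of the log2 fold change was 0.17 for members.

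The members, role groups and lists of other genes were chosen with earlier results of these data known. All 45 members were named, of the other lists the genes with an unadjusted p below 0.05 (at most 10), and Cdkn1a, Cdkn2a, Ccnd1, C3 and the most abundant marker of a list. Nek6, Nek7, Nek9, Nek4, the 4 mitotic genes above 0, Acta1, Tnnc2 and Ncr1 were named after their values were seen. Promoters came from RefSeq (GRCm38.p6) and were matched by symbol.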

Additional observations from a re-analysis of the deposited data

Results flagged for a closer look

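Of 98 groups of 4 tumors tested for a tumor far from the other 3 of its genotype, 4 had one, and chance alone gives about 1 in 20. Aurkb stood apart in WT 2, at 5.57 log2 CPM against 5.06 to 5.11 in the other WT tumors. Nusap1 did so in WT 2 as well, at 6.21 against 5.84 to 5.88. Tyms stood apart in WT 3, at 5.52 against 4.70 to 4.75. The mean over the replication role groups stood apart in C3-/- 2, at 5.83 against 6.23 to 6.30 in the other C3-/- tumors.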

How the results depend on the processing

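Over 19 alternatives (11 on all tumors and 8 that each leave out 1 tumor), the 26 members other than Nek2 with a fold change over 1 SE never changed sign and were never called, and 13 of 18 members with smaller differences changed sign in at least 1. DESeq2 called 16 genes where edgeR called 0, and 1 member, Nek2, where edgeR called 0 (log2 fold change -0.68, adjusted p 0.0489). Leaving out 1 tumor gave 0 to 4 genes and 0 members called in edgeR, 3 to 12 members lower and 1 to 2 higher at an unadjusted p below 0.05, 4 to 18 other mitotic genes lower, and 5 to 12 members with all C3-/- tumors below and 1 to 2 with all above. It moved the median log2 fold change of members from -0.29 to -0.10, of mitotic members from -0.37 to -0.18, of replication members from -0.048 to 0.15 and of other mitotic genes from -0.30 to -0.14. In DESeq2, a series of fits chosen after seeing the data, 9, 26, 10 and 1 genes were called without WT 1 to WT 4 and 111, 28, 2 and 1 without C3-/- 1 to C3-/- 4, and 0 to 1 members, the 1 being Nek2 without C3-/- 1 (log2 fold change -0.69). With no filter beyond 1 count, 10 members were lower at an unadjusted p below 0.05. With acinar markers as a covariate, 11 members and 15 other mitotic genes were lower and 1 member was higher, and with muscle markers 1 member was higher. Scaled to total counts without TMM, which moved the median gene to 0.03, 2 members had all C3-/- tumors below WT. The cause of these shifts was not tested. Over the 19 alternatives the number of mitotic members below 0 was 21 to 24 of 24. Tumors that share a replicate number did not all deviate together (correlations -0.03, 0.49, -0.36 and 0.59, with 4 of 8 tumors closest to their own number). With so few tumors this cannot settle whether the numbers pair them. With that number as a block, 0 genes were called and Nek2 had -0.68. Counts of members went down to 76 in a tumor (Ccne1), and the share of depth in their errors was not tested.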
